A study of Mus musculus with 6 samples.

Results

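Periostin (Postn) and 9 other genes of matricellular and mesenchymal matrix proteins were followed through 6 RNA-seq libraries of mouse cells in culture. The set holds Fn1, Postn, Tnc, Sparc, Thbs1, Thbs2, Ccn1 (also written Cyr61), Ccn2 (Ctgf), Ccn4 (Wisp1) and Islr, 10 of the 22600 genes in the count table. They were selected on measured expression differences in these libraries, with earlier results known: Postn and Islr stood out in the pair of FLICs libraries, and the set as a whole was higher in FLICs. Differences between FLICs with and without OHT and between FLICs and ES cells are therefore descriptions and carry no test.

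The groups were FLICs with OHT (1 library, labelled TRF2-/-), untreated FLICs (1 library, labelled wild-type), ES cells with OHT (2 libraries, TRF2-/-) and untreated ES cells (2 libraries, wild-type), all of C57BL/6 background. FLICs are differentiated cells derived from mouse embryonic stem (ES) cells. OHT is hydroxytamoxifen, a tamoxifen metabolite used to switch on inducible recombinases. It was given for 3 days within a culture of 96 h, and in this design its addition goes with loss of TRF2, a protein that caps telomeres. The sources used here name neither the allele nor the recombinase behind the OHT response, nor whether the lines were single clones. No group had OHT without loss of TRF2, so OHT and that loss cannot be told apart. By its title, the study asks how pluripotent and differentiated cells fare without TRF2.

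Matricellular proteins are secreted into the extracellular matrix, where they tune how cells attach, spread and receive growth factors rather than bearing load. Many of their genes respond to transforming growth factor beta (TGF-beta), to serum and to mechanical tension, partly through the coactivators YAP and TAZ and the TEAD factors. They are low in most resting adult tissue and high in embryonic mesenchyme, healing wounds and fibrosis. Fibronectin, encoded by Fn1, is a fibril-forming matrix glycoprotein to which several of the others bind.

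Expression is given as CPM, the counts of a gene relative to a library size scaled by TMM (trimmed mean of M-values). Libraries held 23534551 to 43965309 counts. Where a gene had 0 counts, up to 3 were allowed for, or 0.0686 to 0.118 CPM depending on the library, which covers counting error only. The labels were checked with Terf2, the gene of TRF2, which had 5 counts in FLICs with OHT, against 268 in untreated FLICs, and 9 and 10 counts in ES cells with OHT, against 554 and 732 in untreated ES cells. The 14 markers of pluripotent cells summed to 111 CPM in FLICs with OHT and 168 CPM in untreated FLICs, and to 4314 and 4478 CPM in ES cells with OHT, against 4893 and 4952 CPM in untreated ES cells. The 2 ES cell libraries with OHT stood apart from each other. By a difference of at least 2-fold in log2(CPM + 1), 470 of 12696 genes differed between them, 421 of them higher in replicate 2, and 0 of 12149 between the untreated ES cell libraries. Of the 10 genes here, Thbs1 was the 1 that differed by that much within the OHT pair.

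**Figure D1:**
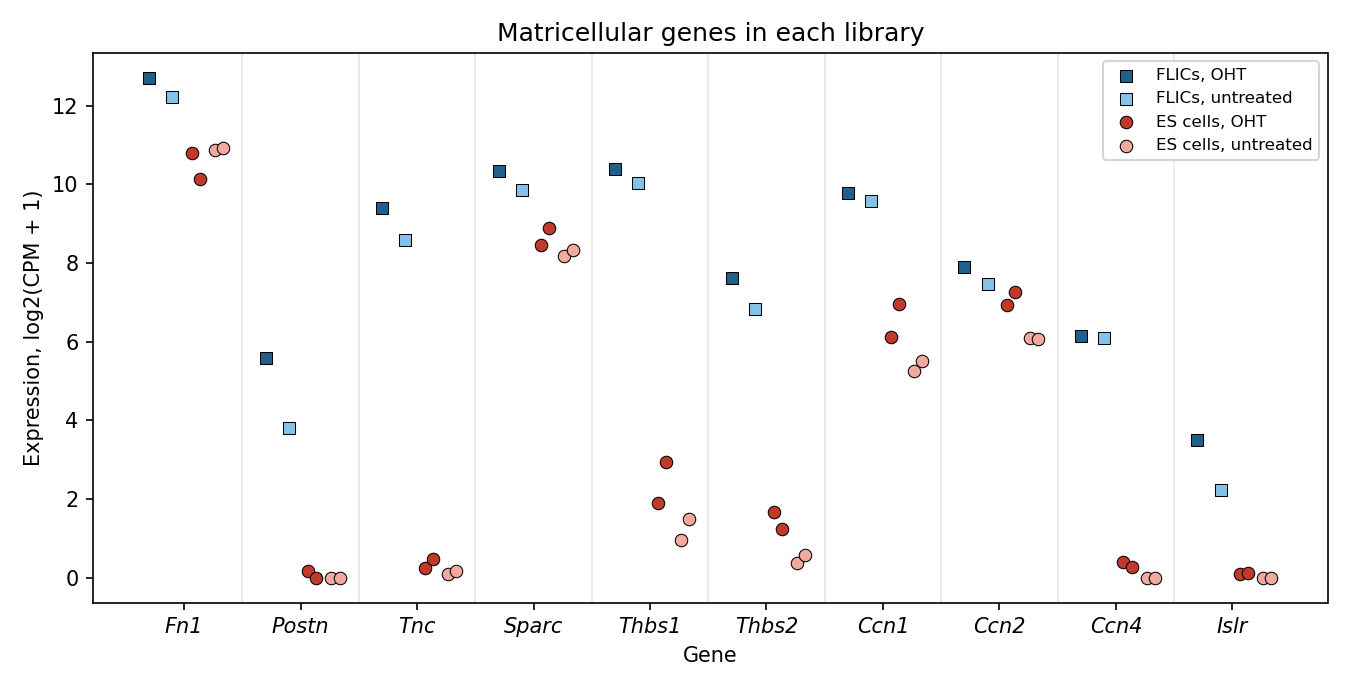
Expression of the 10 genes in each library, as log2(CPM + 1) on the vertical axis, with FLICs as squares and ES cells as circles, and OHT in the darker shade. The FLICs points lie above the ES cell points for each gene, and Postn, Tnc, Ccn4 and Islr lie near 0 in the ES cell libraries.

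Fn1 was the gene with the most counts of the set in every library. Fn1 (ENSMUSG00000026193, chromosome 1, 71585520 to 71653200, minus strand, GRCm38) stood at 6671 CPM in FLICs with OHT and 4762 CPM in untreated FLICs, and at 1762 and 1115 CPM in ES cells with OHT, against 1884 and 1930 CPM in untreated ES cells. It was highest in the FLICs pair, and its ES cell libraries with OHT lay below both untreated ones. Of the counts of the 10 genes together, Fn1 held 58.4% in FLICs with OHT and 57.6% in untreated FLICs, against 76.3% and 59.7% in ES cells with OHT and 82.8% and 81.7% in untreated ES cells. The 10 genes summed to 11423 CPM in FLICs with OHT and 8262 CPM in untreated FLICs, or 1.14% and 0.829% of all counts. They summed to 2311 and 1868 CPM in ES cells with OHT, against 2275 and 2363 CPM in untreated ES cells.

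Postn encodes periostin, which binds fibronectin and tenascin-C and takes part in collagen cross-linking in ligament, heart valve and wound. Postn (ENSMUSG00000027750, chromosome 3, 54361109 to 54391037, plus strand) had 2066 counts in FLICs with OHT and 422 in untreated FLICs, or 47.3 and 13.0 CPM. In ES cells with OHT it had 4 and 0 counts, and in untreated ES cells 0 and 0, so the ES cell groups overlapped. Untreated FLICs were at least 294-fold above untreated ES cells, with 3 counts over the untreated ES cells taken as the floor. In bulk RNA, more cells that express a gene and more RNA per cell cannot be told apart, here and in all values that follow.

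Tnc encodes tenascin-C, a large hexameric glycoprotein of embryonic and wounded stroma that weakens adhesion to fibronectin. Tnc (ENSMUSG00000028364, chromosome 4, 63959785 to 64047015, minus strand) stood at 677 CPM in FLICs with OHT and 384 CPM in untreated FLICs, and at 0.187 and 0.392 CPM in ES cells with OHT, against 0.0662 and 0.133 CPM in untreated ES cells. The ES cell values rest on 6 and 10 counts with OHT and on 2 and 5 counts untreated. Of the members with counts in both untreated cell types, Tnc had the highest fold between them, 3721 on summed counts, with a 95% counting interval (exact binomial) of 1805 to 9256.

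Sparc encodes osteonectin, a collagen-binding glycoprotein that slows cell spreading. Sparc (ENSMUSG00000018593, chromosome 11, 55394500 to 55423183, minus strand) was abundant in both cell types, at 1294 CPM in FLICs with OHT and 925 CPM in untreated FLICs, and at 353 and 470 CPM in ES cells with OHT, against 286 and 320 CPM in untreated ES cells. Both ES cell libraries with OHT lay above both untreated ones.

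Thrombospondin-1 and thrombospondin-2 are trimeric matrix proteins that inhibit the growth of blood vessels through the receptor CD36, and thrombospondin-1 also activates latent TGF-beta. Thbs1 (ENSMUSG00000040152, chromosome 2, 118111876 to 118127133, plus strand) stood at 1340 CPM in FLICs with OHT and 1049.6 CPM in untreated FLICs, and at 2.75 and 6.66 CPM in ES cells with OHT, against 0.927 and 1.81 CPM in untreated ES cells. Thbs2 (ENSMUSG00000023885, chromosome 17, 14665500 to 14694235, minus strand), whose protein lacks that activating sequence, stood at 194 CPM in FLICs with OHT and 112 CPM in untreated FLICs, and at 2.18 and 1.37 CPM in ES cells with OHT, against 0.298 and 0.479 CPM in untreated ES cells. Both genes were low in untreated ES cells, with 28 and 68 counts of Thbs1 and 9 and 18 of Thbs2. In both, the ES cell groups did not overlap and OHT was higher, as in 25.2% of all genes tested. The ES cell library with OHT that was higher for Thbs1, replicate 2, was the lower one for Thbs2.

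The CCN proteins bind integrins and heparan sulfate and modulate growth factor signalling. Ccn1 and Ccn2 are immediate-early genes and much-used readouts of YAP and TEAD. Ccn4 was found as a target of Wnt signalling. Ccn1 (ENSMUSG00000028195, chromosome 3, 145646976 to 145649981, minus strand) stood at 883 CPM in FLICs with OHT and 769 CPM in untreated FLICs, and at 68.8 and 123 CPM in ES cells with OHT, against 37.2 and 44.8 CPM in untreated ES cells. Ccn2 (ENSMUSG00000019997, chromosome 10, 24595442 to 24598683, plus strand) was among the members whose cell types lay closest, at 236 CPM in FLICs with OHT and 176 CPM in untreated FLICs, and at 121 and 152 CPM in ES cells with OHT, against 66.7 and 66.2 CPM in untreated ES cells. Ccn4 (ENSMUSG00000005124, chromosome 15, 66891320 to 66923201, plus strand) stood at 69.7 CPM in FLICs with OHT and 67.3 CPM in untreated FLICs. In ES cells it had 10 and 5 counts with OHT and 0 and 0 counts untreated. So Ccn1 and Ccn2 were well measured in each library, while Ccn4 was at the floor in untreated ES cells.

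Islr encodes meflin, a membrane-anchored protein with leucine-rich repeats and an immunoglobulin domain that marks mesenchymal stromal cells. Islr (ENSMUSG00000037206, chromosome 9, 58156268 to 58204306, minus strand) was the lowest member in FLICs, with 447 counts with OHT and 120 untreated, or 10.2 and 3.70 CPM. It had 2 and 2 counts in ES cells with OHT and 0 and 0 in untreated ES cells. The annotated span of Islr overlaps that of Islr2 (58196297 to 58204319) on the same strand, so its counts are uncertain where reads could be shared. Islr2 ran the other way between cell types, at 0.526 CPM in FLICs with OHT and 0.0926 CPM in untreated FLICs, and at 10.3 and 9.06 CPM in ES cells with OHT, against 19.8 and 17.2 CPM in untreated ES cells. Thbs1, Tnc, Ccn2 and Fn1 each overlap an annotated non-coding gene on the opposite strand, and the sources used here do not say how strand entered the counting.

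The stretch of 250 bases before the start was taken from RefSeq (GRCm38.p6), which held 8 windows for 6 of the 10 genes. Thbs1, Ccn2, Ccn4 and Fn1 had none. The windows of Postn and Islr are printed as those of the members with the 2 highest differences in the FLICs pair, and those of Thbs2 and Ccn1 for their values in the ES cell test. For Postn, RefSeq gave 2 starts, and the printed window belongs to the downstream one. The printed windows lie at chr3:54360857-54361106 (plus strand) for Postn, chr9:58158555-58158804 (minus) for Islr, chr17:14694263-14694512 (minus) for Thbs2 and chr3:145649986-145650235 (minus) for Ccn1. Each reads 5′ to 3′ on the strand of its gene and ends at the base before the RefSeq start. That start lies well inside the GENCODE span given above for Islr, so the upstream end of that span is not the start used here. Capitals mark TATAAA on either strand and, in Ccn1, CATTCC, the reverse complement of the TEAD motif GGAATG.
Postn: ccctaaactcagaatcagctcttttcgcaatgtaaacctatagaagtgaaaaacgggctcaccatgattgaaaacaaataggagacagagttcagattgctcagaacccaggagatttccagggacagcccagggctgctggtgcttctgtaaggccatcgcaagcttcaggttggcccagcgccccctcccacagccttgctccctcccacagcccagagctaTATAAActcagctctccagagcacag
Islr: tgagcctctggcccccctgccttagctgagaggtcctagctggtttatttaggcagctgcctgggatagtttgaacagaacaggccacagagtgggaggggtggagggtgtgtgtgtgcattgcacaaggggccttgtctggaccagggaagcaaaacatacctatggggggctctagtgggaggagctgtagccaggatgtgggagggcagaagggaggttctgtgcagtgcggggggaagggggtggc
Thbs2: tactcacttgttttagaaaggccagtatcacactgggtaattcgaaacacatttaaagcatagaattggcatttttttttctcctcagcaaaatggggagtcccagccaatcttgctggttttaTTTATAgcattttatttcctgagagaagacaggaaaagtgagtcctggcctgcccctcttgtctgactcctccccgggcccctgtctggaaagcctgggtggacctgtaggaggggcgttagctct
Ccn1: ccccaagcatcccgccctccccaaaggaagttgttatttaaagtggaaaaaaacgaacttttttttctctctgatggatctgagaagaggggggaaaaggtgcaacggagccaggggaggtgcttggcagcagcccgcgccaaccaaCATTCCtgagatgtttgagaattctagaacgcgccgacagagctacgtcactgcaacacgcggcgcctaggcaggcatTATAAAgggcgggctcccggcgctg
TATAAA lay 26 to 21 bases before the start in this Postn window and 25 to 20 bases in Ccn1, while the other Postn window held no searched motif. In Thbs2 its reverse complement lay 126 to 121 bases before the start, and Islr held no marked motif. On both strands, TATAAA was present in 5 of the 8 windows, among them the 2 overlapping windows of Tnc, and in 12.4% of 32851 windows of all genes. GGAATG was in 1 of 8 windows and in 12.6% of all windows. The AP-1 motif TGANTCA was in 0 of 8 and in 6.75% of all windows, and the CArG box was in 0 of 8 and in 1.47%. The telomere repeat TTAGGG was in 1 of 8, in Postn and not in capitals, and in 9.32% of all windows. The windows are short, and a match or its absence in them describes letters only.

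Between cell types, all 10 genes stood at least 2-fold higher in log2(CPM + 1) in FLICs without OHT than in untreated ES cells, as did 20.8% of the 12552 genes that averaged 1 CPM or more. This contrast was known when the genes were chosen, so nothing is read from that count. The differences spread widely. Thbs1 and Tnc were 8.82 and 8.45 higher on that scale, Thbs2 6.35, Ccn4 6.09, Ccn1 4.20 and Postn 3.81. Islr was 2.23 higher, Sparc 1.61, Ccn2 1.39 and Fn1 1.32. The median of the 10 was 4.01, beside -0.01 over all genes counted. On the plain scale, untreated FLICs had 767 times the Thbs1 of untreated ES cells, 289 times the Thbs2, 18.7 times the Ccn1, 3.05 times the Sparc and 2.65 times the Ccn2. Ccn4 was at least 1521-fold and Islr at least 83.7-fold higher, against the floor. With a pseudocount of 5 CPM the difference of Postn was 1.85 and that of Islr 0.80, so that 9 of the 10 were past 2-fold.

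With OHT in both cell types, 9 of the 10 were past 2-fold, where 23.2% of 12910 genes were, and the exception was Ccn2. Ccn2 stood 1.73-fold higher in FLICs with OHT than in ES cells with OHT, against 2.65-fold between the untreated cell types. Ccn1 was 9.23-fold higher, Thbs1 285-fold, Thbs2 109-fold and Fn1 4.64-fold. Postn, with 4 counts over the ES cells with OHT, gave a ratio of 680 on summed counts with a counting interval of 265 to 2498.

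Most markers of mesenchyme moved with this contrast. The 15 fibroblast and mesenchyme markers summed to 9454 CPM in FLICs with OHT and 7928 CPM in untreated FLICs, and to 334 and 291 CPM in ES cells with OHT, against 422 and 353 CPM in untreated ES cells. Vim, the gene of vimentin, held most of those sums. Prrx1 and Fap were at 0 counts in every ES cell library, but Fap had 2 counts in FLICs with OHT and 0 untreated. Of 12 that averaged 1 CPM or more, 11 were past 2-fold higher in untreated FLICs. The other, Thy1, stood at 0.556 CPM there against a mean of 4.54 CPM in untreated ES cells. Pdgfra, which averaged less than 1 CPM, also ran the other way, at 0.216 CPM against a mean of 0.969 CPM. The 6 smooth muscle markers summed to 9525 CPM in FLICs with OHT and 7179 CPM in untreated FLICs, and to between 14.8 and 33.2 CPM in the ES cell libraries. Acta2 led in FLICs, at 7920 CPM with OHT and 5936 CPM untreated. Of 5 that averaged 1 CPM or more, 4 were past 2-fold higher in untreated FLICs. The other, Des, stood at 1.08 CPM there against a mean of 8.06 CPM in untreated ES cells. The 12 extraembryonic endoderm markers summed to 1851 CPM in FLICs with OHT and 1543 CPM in untreated FLICs, and to between 177 and 209 CPM in the ES cell libraries, with Ttr at 0 throughout and Sox17 at 0 in FLICs. Of 8 that averaged 1 CPM or more, 7 were past 2-fold higher in untreated FLICs. The exception, Lama1, stood at 1.51 CPM there against a mean of 75.6 CPM in untreated ES cells. Thus the untreated FLICs differed from ES cells in markers of several lineages at once, and the part of cell makeup in the values of the 10 genes was not tested.

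Levels of different genes were compared per kilobase of the deposited gene length. In FLICs with OHT the order was Sparc (1299 CPM per kb), Fn1 (879), Ccn1 (777), Thbs1 (381), Ccn2 (201.5), Tnc (105), Ccn4 (63.3), Thbs2 (55.2), Postn (18.8) and Islr (7.96). In untreated FLICs, Ccn1 (676 CPM per kb) stood above Fn1 (628), and Ccn4 (61.1) above Tnc (59.8), the other places being as with OHT. With 1 library each, no spread separates these neighbours. In ES cells with OHT, Sparc averaged 413 CPM per kb and Fn1 190, followed by Ccn2 at 116 and Ccn1 at 84.2, whose libraries overlapped. Thbs1 followed at 1.34 CPM per kb, Thbs2 at 0.506 and Ccn4 at 0.231, and Islr, Tnc and Postn overlapped each other below 0.07. In untreated ES cells the order was Sparc (304 CPM per kb), Fn1 (251), Ccn2 (56.7), Ccn1 (36.1), Thbs1 (0.389), Thbs2 (0.110) and Tnc (0.0155), with no overlap between neighbours, and Postn, Ccn4 and Islr at 0. The same 5 genes, Sparc, Fn1, Ccn1, Ccn2 and Thbs1, were thus the highest members in every group. Thbs1 stood above Ccn2 in FLICs and below Ccn1 in ES cells.

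**Figure D2:**
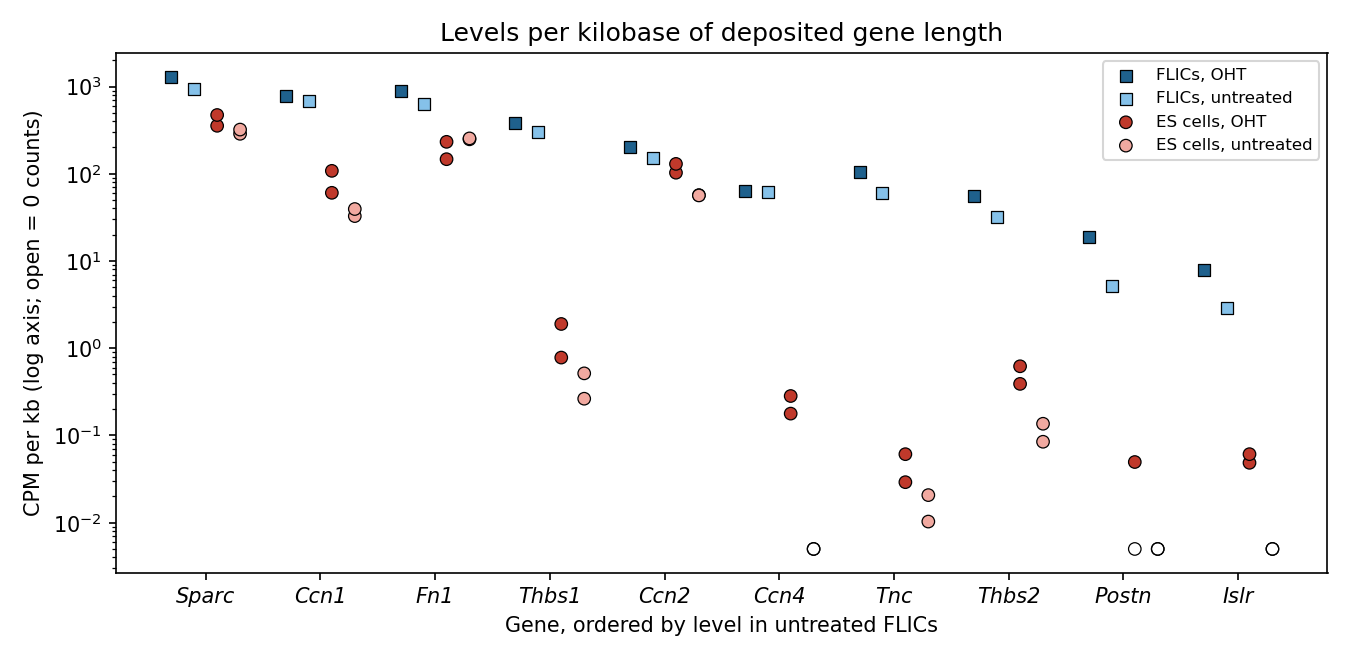
CPM per kilobase of deposited gene length on a log axis, for each library, with genes ordered by their level in untreated FLICs; open circles at the bottom stand for 0 counts. Sparc, Fn1, Ccn1 and Ccn2 lie above 30 CPM per kb in each library, while Thbs1, Ccn4, Tnc, Thbs2, Postn and Islr drop below 2 CPM per kb in ES cells.

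Within FLICs, all 10 genes were higher with OHT, where 56.4% of the 11789 genes that averaged 1 CPM or more were higher by any amount. Past 2-fold were Postn and Islr, 2 of the 10, where 0.424% of genes were. Both counts belong to the contrast with which the genes were chosen, and there is no replicate in either group. Postn had the highest difference of all 11789 genes, 1.78 in log2(CPM + 1). Its ratio of CPM was 3.63, with a 95% counting interval of 3.27 to 4.04. Islr ranked 7, with a difference of 1.25 and a ratio of 2.76 (2.25 to 3.41). These intervals cover counting error and not the variation between cultures.

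The other 8 members lay below 2-fold. Tnc was 0.82 higher, a ratio of 1.76 (1.73 to 1.80), and Thbs2 0.78 higher, a ratio of 1.73 (1.66 to 1.79). Fn1, Sparc and Ccn2 were 0.49, 0.48 and 0.42 higher, Thbs1 0.35 and Ccn1 0.20. Ccn4 differed by 0.05, a ratio of 1.04 with a counting interval of 0.980 to 1.09 that includes 1. In rank among the 11789 genes Tnc and Thbs2 were at 133 and 159, Fn1, Sparc and Ccn2 at 657, 666 and 923, Thbs1 at 1319, Ccn1 at 2752 and Ccn4 at 5539. The 3 CCN members thus spread from a ratio of 1.34 for Ccn2 down to that of Ccn4. The median of the 10 was 0.49, beside 0.03 over all genes.

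Mesenchymal and smooth muscle markers were also higher in FLICs with OHT. Of the 15 fibroblast and mesenchyme markers, 11 had a mean of at least 1 CPM and 9 of these were higher, with a median of 0.43. Of the 6 smooth muscle markers, 5 did and all 5 were higher, with a median of 0.77. Of the 14 pluripotency markers, 9 did and 3 were higher, with a median of -0.60. The part of these shifts in the higher matrix genes was not tested.

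In ES cells, the comparison with 2 libraries per group, edgeR's quasi-likelihood test called none of the 10 genes at an adjusted p of 0.05, where it called 0.534% of 15535 genes. At an unadjusted p under 0.05, 6 of the 10 were higher, where 10.5% of genes were. DESeq2 called 4 of the 10 higher (Thbs2, Ccn1, Ccn2 and Ccn4), where it called 1.95% of 14631 genes. The libraries with OHT lay wholly above the untreated ones for 8 genes (25.2% of all genes) and wholly below for Fn1 (27.6% of all genes), and those of Postn overlapped. Tnc, Postn, Ccn4 and Islr entered the test only with the FLICs libraries in the filter, since a filter on the ES cell libraries alone kept the other 6. No count over the 10 is therefore evidence for the set. The value of Ccn2 in this contrast was also among the earlier results.

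Thbs2 had the highest fold of the members with counts in both groups. It averaged 1.78 ± 0.574 CPM in ES cells with OHT and 0.388 ± 0.128 CPM in untreated ES cells (SD, n = 2 each), a log2 fold change of 2.17 ± 0.35 (SE; adjusted p = 0.0726, edgeR). Ccn2 averaged 136 ± 22.3 CPM with OHT and 66.5 ± 0.360 CPM untreated (SD, n = 2 each), a log2 fold change of 1.04 ± 0.16 (SE; adjusted p = 0.0700, edgeR). The difference in Ccn2 was larger than the spread between libraries of either group, and the DESeq2 adjusted p was 8.41e-06 for Thbs2 and 7.38e-06 for Ccn2.

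Ccn1 averaged 95.8 ± 38.2 CPM with OHT and 41.0 ± 5.39 CPM untreated (SD, n = 2 each), a log2 fold change of 1.22 ± 0.29 (SE; adjusted p = 0.149, edgeR), and the DESeq2 adjusted p was 0.000891. Thbs1 averaged 4.70 ± 2.77 CPM with OHT and 1.37 ± 0.624 CPM untreated, a log2 fold change of 1.74 ± 0.51 (SE; adjusted p = 0.182, edgeR). Both genes were higher in OHT replicate 2 than in replicate 1, by 1.79-fold for Ccn1 and 2.43-fold for Thbs1. Without replicate 2 their log2 fold changes were 0.78 and 1.0, and without replicate 1 they were 1.58 and 2.24.

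Sparc averaged 411 ± 82.4 CPM with OHT and 303 ± 23.9 CPM untreated, a log2 fold change of 0.44 ± 0.19 (SE; adjusted p = 0.285, edgeR). Tnc, which entered the test only with the FLICs libraries in the filter, averaged 0.290 ± 0.145 CPM with OHT and 0.0996 ± 0.0473 CPM untreated. Its log2 fold change was 1.41 ± 0.58 (SE; adjusted p = 0.276, edgeR). Fn1 averaged 1438 ± 458 CPM with OHT and 1907 ± 32.6 CPM untreated (SD, n = 2 each), a log2 fold change of -0.41 ± 0.24 (SE; adjusted p = 0.404, edgeR). The value of Fn1 rested on OHT replicate 2, being -0.08 without it and -0.77 without replicate 1, each with 1 library left in the OHT group. Sparc was 0.26 without replicate 2 and 0.64 without replicate 1.

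Ccn4 had 0 counts in both untreated libraries and 15 counts over the OHT group (edgeR adjusted p = 0.0907, DESeq2 adjusted p = 0.0125). With 3 counts allowed over the untreated group as a bound, it was 5.89-fold higher with OHT. Postn and Islr, with 4 counts each over the OHT group, had edgeR adjusted p-values of 0.332 and 0.181, and both were 1.57-fold higher at that bound. These folds take the OHT counts as exact, so they are not lower limits. Ccn4, Postn and Islr entered the test only with the FLICs libraries in the filter, so nothing is read from these p-values. With those 3 genes at their bounds the median log2 fold change of the 10 was 1.13, beside -0.01 over all genes. Over the 6 members that the ES cell libraries alone retained, it was 1.13 as well.

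**Figure D3:**
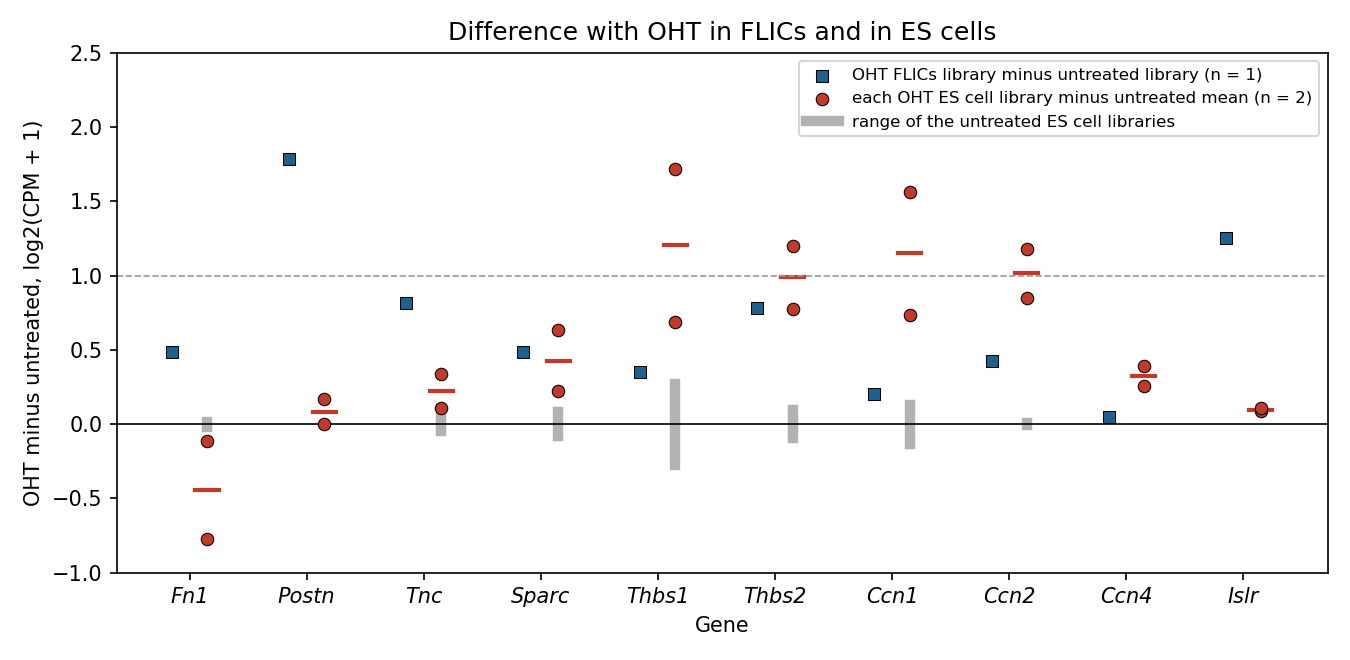
Difference with OHT in log2(CPM + 1) for each gene: squares give the FLICs pair, circles give each ES cell library with OHT minus the mean of the untreated ES cell libraries, with a short line at their mean, and grey bars span the untreated ES cell libraries around their mean. Postn and Islr stand above 1 in FLICs and near 0 in ES cells, where their counts were 4 or fewer; Fn1 is above 0 in FLICs and below 0 in ES cells.

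Markers of other cell types moved beside these ES cell values. Of the tested markers, 6 of 6 for smooth muscle were higher with OHT (median log2 fold change 0.98), as were 8 of 10 for extraembryonic endoderm (0.52), 7 of 7 for epithelium and trophoblast (0.44) and 3 of 5 for endothelium (0.27). For fibroblasts and mesenchyme 10 of 13 were higher (0.50, or 0.43 with the 2 genes at 0 in a group at their bound), with Prrx1 and Fap at 0 in all ES cell libraries. Among those higher, Twist2, Col3a1, Col6a1 and Dcn had 5 counts or fewer in each ES cell library. They entered the test only through their counts in FLICs, so nothing is read from the count of 10. The median over all genes tested was -0.01. Not every library went with these counts. In OHT replicate 1, the smooth muscle markers Cnn1, Myh11 and Des lay below both untreated libraries. In OHT replicate 2, the epithelial markers Cdx2 and Cdh1 did. Of the pluripotency markers 4 of 14 were higher (-0.27) and of the neural ones 2 of 5 (-0.29), and 2 of 5 immune markers could be tested.

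Krt18, a keratin of simple epithelium, and Tie1, a receptor tyrosine kinase of endothelium, were the markers called by edgeR. Krt18 rose with OHT, to 43.6 and 42.0 CPM in ES cells with OHT, against 15.4 and 18.5 CPM in untreated ES cells (log2 fold change 1.34, SE 0.16, edgeR adjusted p = 0.0414). Tie1 rose to 9.48 and 5.45 CPM with OHT, against 0.364 and 0.346 CPM untreated (log2 fold change 4.39, SE 0.41, edgeR adjusted p = 0.0250). Both calls were lost without either untreated library (adjusted p of 0.463 and 0.285 for Krt18, and of 0.0961 and 0.112 for Tie1).

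The summed levels, which a few abundant genes dominate, went less evenly. The smooth muscle sum was 20.5 and 33.2 CPM with OHT, against 14.8 and 15.8 CPM untreated. The fibroblast and mesenchyme sum was 334 and 291 CPM with OHT, against 422 and 353 CPM untreated, and the extraembryonic endoderm sum was 179 and 177 CPM, against 185 and 209 CPM. The epithelium and trophoblast sum was 1092 and 905 CPM with OHT, against 923 and 838 CPM untreated, and the endothelium sum was 100.1 and 177 CPM, against 127 and 154 CPM. At an unadjusted p under 0.05, edgeR gave 2 of the fibroblast, 3 of the smooth muscle and 5 of the extraembryonic endoderm markers. DESeq2 called 0, 3 and 3 in the same order. These counts are in either direction, and Lama1, among the endoderm markers that edgeR gave, was lower with OHT (log2 fold change -0.91). Over all genes the shares in either direction were 18.3% for edgeR and 2.54% for DESeq2. The part of these markers in the values of the 10 genes was not tested.

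The differences of Fn1 ran in opposite directions in the cell types, 0.49 higher with OHT in FLICs and 0.44 lower in ES cells in log2(CPM + 1). The ES cell value was not called (edgeR adjusted p = 0.404). For Ccn1 the FLICs difference was 0.20 and the ES cell difference 1.15, and for Thbs1 0.35 and 1.20. For Postn it was 1.78 in FLICs and 0.08 in ES cells, where counts were too few for a difference to be detectable at this depth. None of these differences between cell types was tested, since each FLICs group is 1 library.

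Other genes of the same biology were read from 5 lists. Over all genes counted, 56.4% were higher with OHT in FLICs and 0.424% were past 2-fold higher. Between untreated cell types, 20.8% were past 2-fold higher in FLICs. Of 28 other matricellular genes, 25 were tested in ES cells with OHT and 0 were called, with a median log2 fold change of 0.38, or 0.12 with the 2 genes at 0 in a group set at their bound. Thbs3, a thrombospondin that forms pentamers, had the highest value among those of at least 5 CPM, 0.68 (SE 0.14, edgeR adjusted p = 0.120). Nid1, the basement membrane linker nidogen-1, had the lowest, -0.62 (SE 0.17, edgeR adjusted p = 0.162). In FLICs, 17 of 19 were higher with OHT and 1 was past 2-fold, with a median of 0.44. That gene was Ccn3, of the same family as Ccn1 and Ccn2, at 37.8 CPM with OHT and 16.7 CPM untreated. Spp1, which encodes osteopontin, was the lowest, at 556 CPM with OHT and 666 CPM untreated. Between untreated cell types, 14 of 19 stood higher in FLICs past 2-fold and 3 lower, led by Fbln5 (fibulin-5), 5.29 higher, and by Nid2 (nidogen-2), 2.59 lower.

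Receptors for matricellular proteins, mostly integrins and syndecans, gave 0 calls among 25 tested in ES cells, with a median of 0.15. Sdc4, the fibronectin co-receptor syndecan-4, had 32.1 and 96.2 CPM in ES cells with OHT, against 35.5 and 33.9 CPM in untreated ES cells, so that 1 library carried its difference. Lrp1, an endocytic receptor that binds thrombospondins, had 39.4 and 49.6 CPM with OHT, against 80.3 and 92.9 CPM untreated, a log2 fold change of -0.96 ± 0.18 (SE; adjusted p = 0.0958, edgeR). Both of its libraries with OHT lay below both untreated ones, and the DESeq2 adjusted p was 0.000891. In FLICs 0 of 20 were past 2-fold and the median was 0.08, with values from 0.51 for the collagen receptor Ddr2 to -0.47 for the laminin receptor subunit Itga6. Between untreated cell types 16 of 19 stood higher in FLICs past 2-fold and 1, Itga9, lower. The largest of these was Egfr, 4.57 higher.

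Of 20 genes of the TGF-beta pathway, 0 were called in ES cells with OHT, with a median of -0.08 and values from 0.54 for Fbn1 (fibrillin-1, edgeR adjusted p = 0.376) to -0.42 for Smad3 (edgeR adjusted p = 0.267). In FLICs 13 of 20 were higher with OHT and 0 were past 2-fold lower, with a median of 0.08. Pmepa1, a target that feeds back on the pathway, was the lowest, at 57.9 CPM with OHT and 71.7 CPM untreated. Between untreated cell types 11 of 20 were past 2-fold higher in FLICs and 1 lower, with Ltbp3 6.05 higher and Ltbp4 2.04 lower, both genes of latent TGF-beta binding proteins.

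Of 23 tested matrix processing enzymes and inhibitors, 1 was called in ES cells, and the median was 0.31. Adamts1, a secreted protease that cleaves proteoglycans and thrombospondins, rose with OHT. It had 2.34 and 2.20 CPM in ES cells with OHT, against 0.662 and 0.745 CPM in untreated ES cells, a log2 fold change of 1.68 ± 0.19 (SE; adjusted p = 0.0376, edgeR). The call was lost on the ES cell libraries alone (adjusted p = 0.0694) and without untreated replicate 1 (0.356) or 2 (0.312). At 5 CPM or more, values ran from 0.36 for Plod1 (edgeR adjusted p = 0.282) to -0.52 for Furin (edgeR adjusted p = 0.295). In FLICs 18 of 21 enzymes were higher with OHT and 0 past 2-fold, with a median of 0.29. Lox, the collagen and elastin cross-linking oxidase that periostin helps to activate, was just short of 2-fold at 0.99, with 70.0 CPM with OHT and 34.7 CPM untreated. The inhibitor Timp1 was the lowest, at 240 CPM with OHT and 298 CPM untreated. Between untreated cell types 18 of 22 were past 2-fold higher in FLICs and 0 lower, led by Loxl2, 7.34 higher.

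Among the 10 TEAD factors and coactivators, 0 were called in ES cells (median -0.07, from 0.10 for Wwtr1 to -0.39 for Tead2) and 0 were past 2-fold with OHT in FLICs (median 0.09, from 0.44 for the cofactor Vgll3 to -0.25 for Tead4). Between untreated cell types 6 of 10 stood higher in FLICs past 2-fold, led by Tead3 at 2.96, and 1, Tead4, lower. For OHT in ES cells, an unadjusted edgeR p under 0.05 was reached by 7 of the tested other matricellular genes, 6 receptors, 5 TGF-beta pathway genes, 6 enzymes and 0 TEAD genes, where 18.3% of all genes reached it. DESeq2 called 3, 2, 0, 2 and 0 of them in that order, where it called 2.54% of all genes in either direction.

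**Figure D4:**
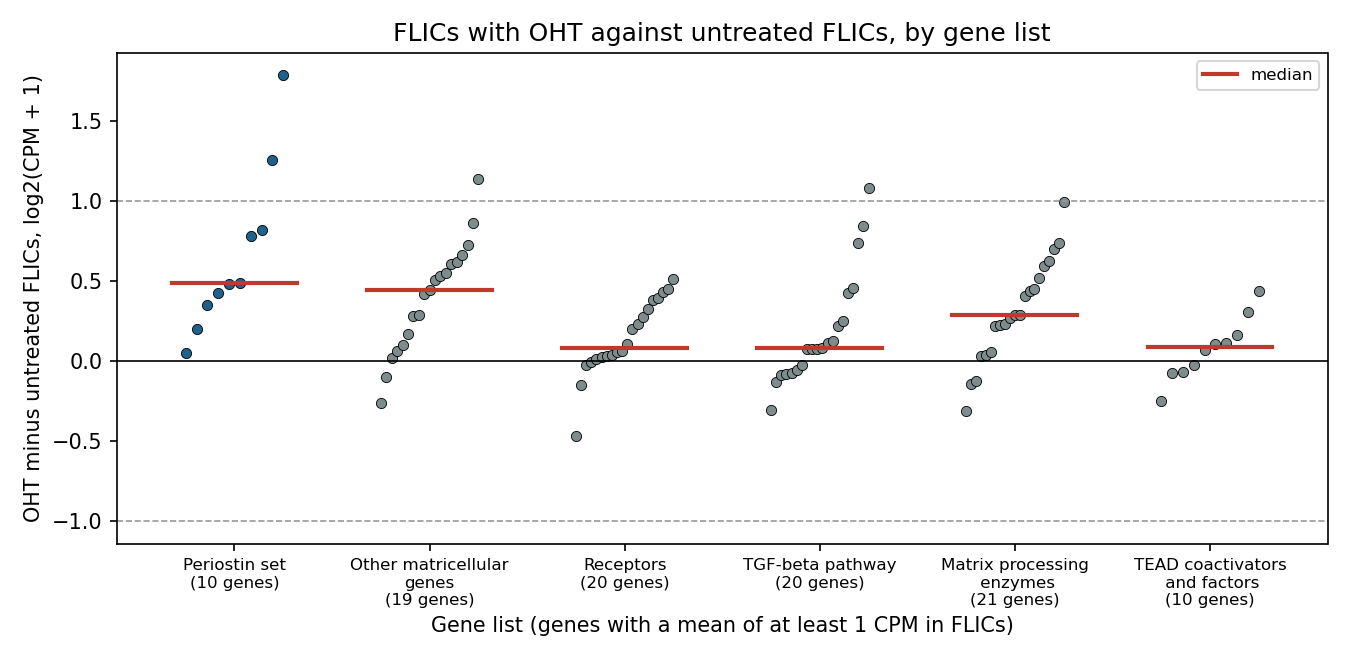
Difference with OHT in FLICs, in log2(CPM + 1), for the 10 genes (periostin set) and for the genes of each list that averaged 1 CPM or more; red lines are medians and dashed lines mark 2-fold. The medians are 0.49 for the 10 genes, 0.44 for the other matricellular genes, 0.29 for the enzymes and between 0.08 and 0.09 for the other lists, and Postn is the topmost point.

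The genes whose values over the 6 libraries were most like those of Postn were found among 10453 genes by Euclidean distance of centred log2(CPM + 1). They were Pparg (distance 0.65), Sorbs2 (0.65), Synpo (0.73), Cp (0.75) and Loxl1 (0.85). Each was low in ES cells, at 1.34 CPM or less, and higher in FLICs with OHT than in untreated FLICs. Pparg, a nuclear receptor of fat cells, stood at 36.4 CPM with OHT and 19.3 CPM untreated. Sorbs2, an adaptor of actin-rich adhesions, stood at 42.1 and 21.3 CPM in FLICs with and without OHT, and Synpo, an actin-binding protein, at 34.0 and 18.4 CPM. Cp, which encodes the copper-carrying ferroxidase ceruloplasmin, stood at 43.8 CPM with OHT and 22.7 CPM untreated. Loxl1, an elastin cross-linking oxidase, stood at 59.3 CPM with OHT and 35.1 CPM untreated. All 5 differed with OHT by 0.74 to 0.95, against 1.78 for Postn, which ranked 1 among 11789 genes, so a smaller difference was given in advance. The 5 were picked on these same values. The likeness rests on 2 FLICs libraries and carries no test.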

How the data were processed

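RNA-seq was done on 6 libraries, prepared with a stranded kit for total RNA, per the labels' protocols. What the authors deposited are whole-number read counts per gene with a gene length. Salmon, DESeq2 and the build GRCm38 are named in the submitters' processing notes, without versions or roles. How reads were assigned, and to which annotation, is not given in the sources used here. Among gene lengths in the table, 77.6% are multiples of 3, as in coding length. Symbols could be matched for 22509 genes but not for 91, and positions come from GENCODE on GRCm38.

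Counts were filtered with filterByExpr, scaled by TMM and fitted with 1 mean per group by edgeR 4.0.16 (limma 3.58.1, R 4.3.3), with Benjamini-Hochberg adjustment over 15535 genes. The common biological coefficient of variation was 18.5%, with 2 residual and 3.79 prior degrees of freedom. FLICs contrasts have 1 FLICs library per group and were described, not tested, by differences in log2(CPM + 1), with a pseudocount of 1 CPM and a minimum mean of 1 CPM. The labels do not say whether replicates were grown separately, so a p-value reflects only the spread between these libraries. Fitting was tested on simulated data.

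The members and lists were chosen with earlier results of these data known. The text names from each list the genes with the largest difference in each direction at 5 CPM or more, from a rule that allows 2 of each, and called genes; 1 gene that this rule names is not reported here. Krt18 and Tie1 were named after their values were seen. Alternatives were RLE scaling, DESeq2 1.42.0, other count filters and pseudocounts, the ES cell libraries alone, a replicate block and leaving out each library.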

Additional observations from a re-analysis of the deposited data

Results flagged for a closer look

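The measured differences of Fn1 with OHT ran in opposite directions in the cell types. In log2(CPM + 1) the FLICs library with OHT was 0.49 above the untreated FLICs library. Both ES cell libraries with OHT lay below both untreated ones, by 0.44 on average. So did those of 27.6% of all genes tested, and Fn1 was not called in ES cells (edgeR adjusted p = 0.404). The difference of the 2 responses, FLICs minus ES cells, was 0.93 and was not tested. In ES cells it came mainly from OHT replicate 2, as the values without each library show.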

How the results depend on the processing

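The number of the 10 genes called with OHT in ES cells, 0 by edgeR, was 0 with RLE scaling, with a filter of 5 CPM in 2 libraries (9 tested) and on the ES cell libraries alone (6 tested). It was 3 with no count filter (Thbs2, Ccn2 and Ccn4) and 4 with DESeq2. Leaving out 1 library leaves 1 in a group, so calls then rest on the spread of the other group and are not counted here. Over all genes the count of 83 became 114 with RLE scaling, 262 with no filter, 46 with the 5 CPM filter, 148 on the ES cell libraries alone and 371 with DESeq2, and 18 to 6165 when 1 library was left out. A replicate block, fitted on the ES cell libraries, called 4 of 6 members (Thbs1, Thbs2, Ccn1 and Ccn2) and 899 of 14208 genes. Same-numbered libraries deviated together (r = 0.452 over 12397 genes). With 2 pairs and no label that says what the numbers mean, whether such libraries share a culture is not known. With each library left out in turn, the log2 fold change of Sdc4 ran from -0.0723 to 1.47 and that of Wwtr1 from -0.13 to 0.33, negative without OHT replicate 2 for Sdc4 and without OHT replicate 1 for Wwtr1. In FLICs the number of members past 2-fold with OHT, 2, became 1 with a pseudocount of 5 CPM, where Islr was at 0.81. Over all genes the 62 past 2-fold became 112 with a pseudocount of 0.5 CPM, 8 with 5 CPM and 37 with a minimum mean of 5 CPM. Counts past 2-fold between cell types stayed within 1.5 times, but differences of low members moved: with a pseudocount of 5 CPM that of Postn between untreated cell types was 1.85, against 3.81, and that of Islr 0.80, against 2.23. The cause of these changes was not tested. Depth limits Postn, Islr, Ccn4 and Tnc in ES cells, where they had 16 counts or fewer over a group.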
